A study of Mus musculus with 4 samples.

Results

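The carbonic anhydrases described here are 7 genes of the family in mouse liver, Car1, Car2, Car3, Car4, Car5a, Car8 and Car14, taken by their gene symbol in the platform annotation. They were measured by 13 of the 45101 probe sets on the array, and every one of these probe sets is given. The genes were chosen by the treated against control differences on these same arrays, that of Car3 above all, so these differences are given as a description and were not tested. The symbols match 7 of the 16 protein-coding Car genes in the RefSeq gene table, and the other 9 are compared further down.

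The data are 4 single-colour Affymetrix arrays of pooled liver RNA, 1 array for each of 2 groups at each of 2 days. All mice carried Met alleles flanked by recombination sites together with a Cre recombinase activated by tamoxifen (genotype Metff/ff:ERCre+/+). The treated group, labelled delta MET + EGFRi, received tamoxifen by intraperitoneal injection on 5 days, which deletes exon 16 of Met throughout the body. After 4 days of rest it was fed canertinib, which blocks the kinase of the EGF receptor, at an intended 80 mg/kg/day, and livers were taken 7 and 10 days into the diet. Control littermates received the corn oil vehicle without tamoxifen, rested for the same 4 days and were sampled 7 and 10 days later. Tamoxifen, loss of Met and canertinib therefore cannot be told apart in any difference between the groups. The number, age and sex of the mice in a pool are not given in the sources used here, and a pool carries no spread between animals. The SD values below are over the 2 arrays of a group, so that they include any change from day 7 to day 10.

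Carbonic anhydrases are zinc enzymes that interconvert carbon dioxide and water with bicarbonate and a proton. The isoforms differ in speed and in place. Car1, Car2 and Car3 are cytosolic, Car5a lies in the mitochondrial matrix, Car4 and Car14 hold their catalytic domain on the outer face of the plasma membrane, and Car8 has lost a zinc-binding residue and does not catalyse the reaction. In the hepatocyte, bicarbonate feeds the first step of the urea cycle and the carboxylation of pyruvate, and Car5a is the isoform that supplies it inside mitochondria. Car3 is a slow enzyme that is nevertheless among the abundant cytosolic proteins of skeletal muscle, fat and rodent liver.

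The median signal of the 4 arrays ranged from 210.5 to 223.9 units, and the values are MAS5 signals in arbitrary linear units. A floor was set at 64.8 units (the 25th percentile over the 4 arrays together), and a fold against a signal at or under it is written as "at least". The labelled tissue was checked on its markers. All 8 of the hepatocyte markers on the array, albumin among them, lay above the floor on every array, with summed signals of 520264 and 477983 in control and 589999 and 551859 in treated livers. Met was not lower in the treated livers (975.5 and 1271 units in control against 2433 and 2829 in treated at day 7 and day 10). Where its probes lie relative to exon 16 was not examined, and probes beyond the deleted exon cannot check the deletion.

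Among the cytosolic isoforms, Car3 stood far apart. Its brightest probe set, 1449434_at, read 54313 units at day 7 and 42838 units at day 10 in control livers, and 191 units at day 7 and 355 units at day 10 in treated livers. Both treated arrays thus lay far under both control arrays. The signal was 284-fold lower at day 7 and 121-fold lower at day 10, and 0.352% and 0.829% of the control signal remained. The treated signal at day 7 lay under that array's median of 210.5 units, and detection calls were not used. How much of the treated signals is background is therefore not known, so the folds are not exact. Over both days the means were 48576 ± 8114 units in control and 273 ± 116 units in treated livers (SD, n = 2 arrays). On the log2 scale the treated minus control difference was -8.15 at day 7 and -6.91 at day 10. Car3 was chosen by this difference, so its rank is a description only. Among the 11993 genes above the filter on dim genes Car3 ranked lowest at both days with the floor at 64.8. It was 2nd lowest with a floor of 21.1 (the 10th percentile) or with the signals as deposited. In those the lowest was Hsd3b5, whose treated signals lie under the floor. The filter kept genes whose mean log2 signal exceeded 7.67, the median over all probe sets. In bulk tissue, fewer cells that express a gene and less RNA per cell cannot be told apart.

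All 4 probe sets of Car3 read lower in both treated livers than in both control livers. A second bright probe set, 1460256_at, which the annotation assigns to the same RefSeq transcript, read 37068 and 39660 units in control and 335.5 and 303.4 units in treated livers at day 7 and day 10. Its fold was 110 at day 7 and 131 at day 10. The remaining probe sets of the gene are both assigned to another sequence record and were dim. The first, 1430584_s_at, read 676.5 and 576.4 units in control livers and 21.8 and 26.3 units in treated livers, both of the latter under the floor. It was therefore at least 10.4-fold lower at day 7 and at least 8.90-fold lower at day 10. The other, 1453588_at, read 271 and 189.1 units in control and 52.8 and 78.4 units in treated livers, at least 4.18-fold lower at day 7 and 2.41-fold lower at day 10. The dim pair cannot show a fold of the size that the bright pair shows, because their control signals lie too close to the floor.

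The course of Car3 from day 7 to day 10 depended on the probe set. Within the treated livers the brightest probe set was 1.86-fold higher at day 10 than at day 7, whereas 1460256_at was 1.11-fold lower. Within the control livers the first was 1.27-fold lower at day 10 and the second 1.07-fold higher. Each such step rests on 1 array per side. The probe sets thus share the low level at both treated days and give no common direction between those days.

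**Figure D1:**
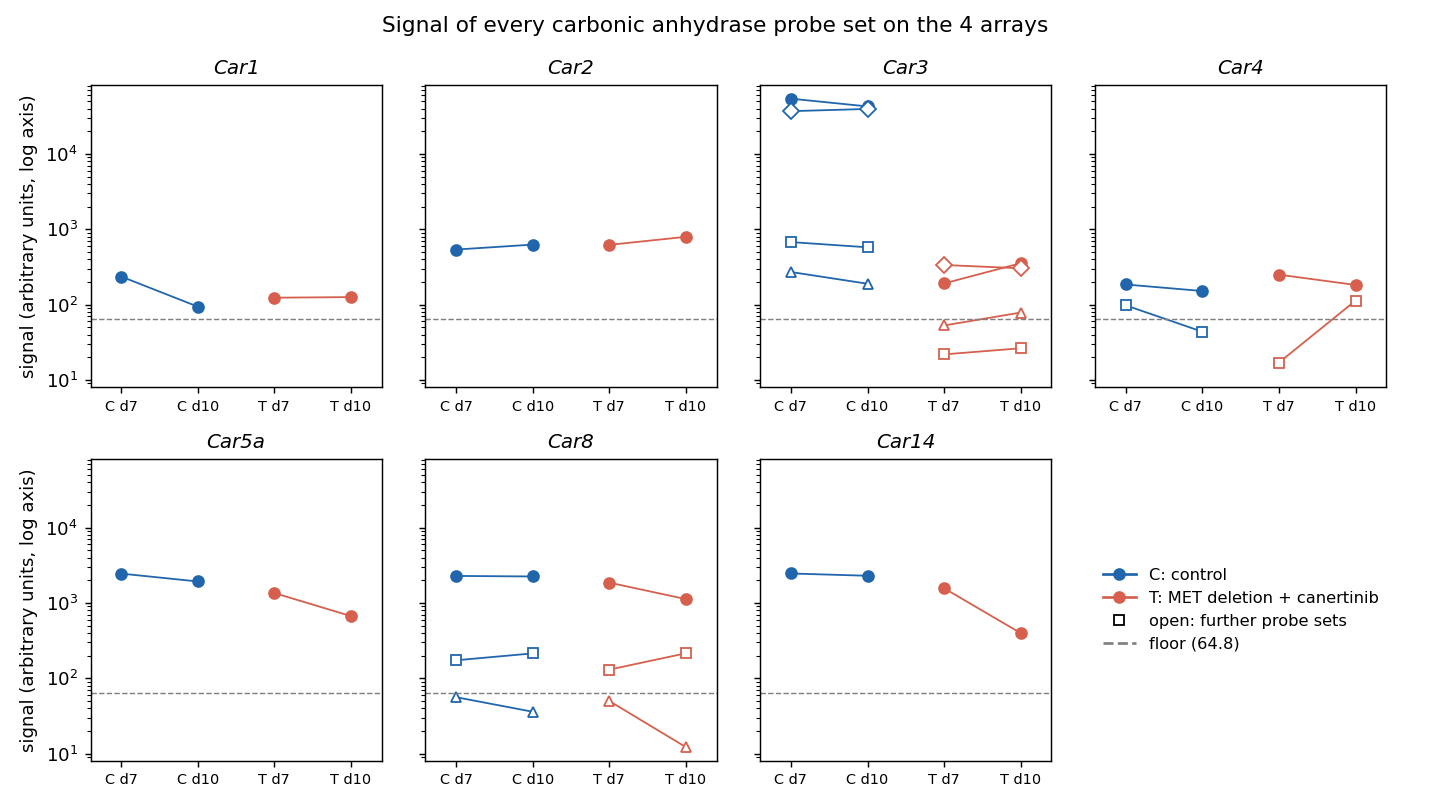
Signal of all 13 probe sets of the 7 carbonic anhydrase genes on the 4 arrays (1 panel per gene, arbitrary units on a log axis; C control, T treated, d7 and d10 the days; filled symbols the brightest probe set, open symbols further ones; dashed line the floor of 64.8). The 4 Car3 probe sets all lie lower in treated livers, with the brightest going from 54313 and 42838 to 191 and 355 units, while Car2 stays between 538.1 and 794.1 units on all arrays.

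Skeletal muscle and fat also hold much Car3, and their markers were read beside it. Of 10 skeletal muscle markers 2 lay above the floor on all arrays and Myh4 lay at or under it on all, and their summed signal was 903.5 and 1002 units in control and 1467 and 1370 units in treated livers. Of 6 adipocyte markers on the array, the defining gene Adipoq lay at or under the floor on all 4 arrays. The fat list's sum, 7050 and 16834 units in control and 20817 and 17691 in treated livers, was mostly that of Pck1, which hepatocytes also express. The muscle sum was higher in treated livers at both days, but its genes did not move together. Ckm, at 301.3 and 251.9 units in control and 514.6 and 585.4 in treated livers, Acta1, Myh1 and Myh2 were higher at both days. Mb, at 83.4 and 101.7 units in control and 51 and 57 in treated livers, was lower at both. The remaining muscle genes had no common direction. Without Pck1 the fat sum was 1358 and 1470 units in control and 950.7 and 1315 units in treated livers, lower at both days, as were Fabp4, Retn and Cidec among its 5 genes. Fabp4 read 390.1 and 437 units in control and 238.7 and 334.5 units in treated livers, log2 differences of -0.71 and -0.39 beside -8.15 and -6.91 for Car3. The 9 macrophage markers, all above the floor on every array, moved with Car3 in the opposite direction: their sums were 14556 and 8957 units in control and 30407 and 27976 units in treated livers at day 7 and day 10. The part of muscle, fat cells and macrophages in the level of Car3 was not tested.

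Car2, the fast and widespread cytosolic enzyme, read 538.1 units at day 7 and 626.1 at day 10 in control livers and 621.2 and 794.1 units in treated livers. The groups overlapped. The treated signal was 1.15-fold higher at day 7 and 1.27-fold higher at day 10, with means of 582 ± 62.2 units in control and 708 ± 122 units in treated livers (SD, n = 2). Car1, the isoform best known from red blood cells, was dim. It read 235.8 and 93.9 units in control and 123.5 and 125.7 units in treated livers, so that both treated values fell between the control values. Car1 was 1.91-fold lower in treated livers at day 7 and 1.34-fold higher at day 10, and the control arrays alone differed 2.51-fold. It lay under the filter on dim genes.

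In the RefSeq gene table the protein-coding genes Car13, Car1, Car3 and Car2 are immediate neighbours in that order on chromosome 3. The log2 differences of the 3 members in this row were -0.93 and 0.42 for Car1, -8.15 and -6.91 for Car3 and 0.21 and 0.34 for Car2 at day 7 and day 10. Car13, next to Car1, was too dim to compare, with 1 of its 3 probe sets above the floor on any array. Car2, on one side of Car3, was not lower at either day. Car1, on the other, was too dim to show a difference of the size seen in Car3.

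Markers of red blood cells and their precursors were read beside Car1 and Car2. Of 17 listed, 11 were on the array, 7 lay above the floor on all arrays, and Hba-a2 and Epb42 lay at or under it on all. Their sums were 7255 and 6080 units in control and 4443 and 5101 units in treated livers at day 7 and day 10. The lower sums rest largely on Alas2, at 3971 and 3735 units in control and 1043 and 1977 units in treated livers. Hbb-b2, the next brightest, read 807.4 and 678.9 units in control and 927.6 and 917.4 units in treated livers. Of the 5 markers above the filter, 1 was higher and 3 were lower at both days. The bile duct markers, a further site of Car2, summed to 996.5 and 1080 units in control and 569.8 and 1289 units in treated livers, with 2 of 5 above the floor on all arrays. The lower sum at day 7 was mostly that of Epcam, at 509.2 units in control and 56.7 units, under the floor, in treated livers. The 2 above the floor differed in direction at day 7, Sox9 with 297.1 against 196.9 units and Krt19 with 143.1 against 192.4 units. The part of these cells in the values of Car1 and Car2 was not tested.

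Car5a, the mitochondrial isoform of the liver, was lower in treated livers and more so at day 10. Its single probe set read 2461 and 1934 units in control livers at day 7 and day 10, and 1357 and 670.4 units in treated livers. The groups did not overlap. The treated signal was 1.81-fold lower at day 7 and 2.89-fold lower at day 10, which left 55.1% and 34.7% of the control signal. The means were 2198 ± 372 units in control and 1014 ± 486 units in treated livers (SD, n = 2). From day 7 to day 10 the signal was 2.02-fold lower in treated and 1.27-fold lower in control livers.

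Car14, a transmembrane isoform that faces the outside of the hepatocyte, showed the steepest step between the days. Its single probe set read 2469 and 2303 units in control livers and 1570 and 398.1 units in treated livers. The groups did not overlap, and the control arrays differed by only 1.07-fold. The treated signal was 1.57-fold lower at day 7 and 5.78-fold lower at day 10, leaving 63.6% and then 17.3% of the control signal. The means were 2386 ± 118 and 984 ± 829 units (SD, n = 2), the large treated SD being the step between the days. Within treated livers day 10 was 3.94-fold lower than day 7. Its probe set carries the suffix of sets that match more than 1 transcript, so signal from a related transcript cannot be told apart. The same holds for the brighter probe set of Car4 and for the dim Car3 probe set 1430584_s_at.

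Car4, anchored on the outer cell surface by a lipid, was dim and showed no common direction. Its brighter probe set read 184.9 and 151.4 units in control and 249.6 and 182.2 units in treated livers. That set was 1.35-fold higher at day 7 and 1.2-fold higher at day 10, and the groups overlapped. The second read 97.7 and 43.6 units in control and 17 and 113.1 units in treated livers, with 2 of the 4 signals under the floor. Car4 lay under the filter on dim genes. Endothelial cells are a known site of Car4 in several organs, and the 8 endothelial markers summed to 8164 and 7077 units in control and 7465 and 10567 units in treated livers, with 7 above the floor on all arrays. Their part in the value of Car4 was not tested.

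Car8, the member without catalytic activity, is best known as a partner of the inositol trisphosphate receptor, a calcium channel of the endoplasmic reticulum. Its brightest probe set read 2292 and 2254 units in control and 1867 and 1127 units in treated livers. The groups did not overlap, and 81.5% of the control signal was left at day 7 and 50.02% at day 10, just short of the 2-fold rule used below. The means were 2273 ± 27.0 and 1497 ± 523 units (SD, n = 2). A second probe set, 1424958_at, read 173.7 and 214.4 units in control and 130.5 and 215.2 units in treated livers, and its groups overlapped. The remaining one lay under the floor on all 4 arrays. The lower signal of Car8 at day 10 was thus seen at its brightest probe set alone.

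With the brightest probe set of each gene, 1 of the 7 members was at least 2-fold lower in treated livers at day 7, namely Car3, and 3 were at day 10, namely Car3, Car5a and Car14. Of all 11993 genes above the filter, 5.16% were that much lower at day 7 and 4.91% at day 10. No member was at least 2-fold higher at either day (4.6% of all genes at day 7 and 5.84% at day 10). Car3 was the only member at least 2-fold lower at both days (1.14% of all genes). Car3, Car5a, Car8 and Car14 were lower at both days at any size, against 31.1% of all genes, and Car2 and Car4 were higher at both, against 26.7%. The groups did not overlap in these 4, all lower in treated livers, against 24.1% of all genes, or 44.4% counting either direction. These shares belong to the contrast in which the members were proposed, and nothing is read from them. The median log2 difference of the 7 members was -0.65 at day 7 and -0.999 at day 10, against -0.06 and 0.01 over all 11993 genes. Of the 7 members 5 passed the filter on dim genes.

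**Figure D2:**
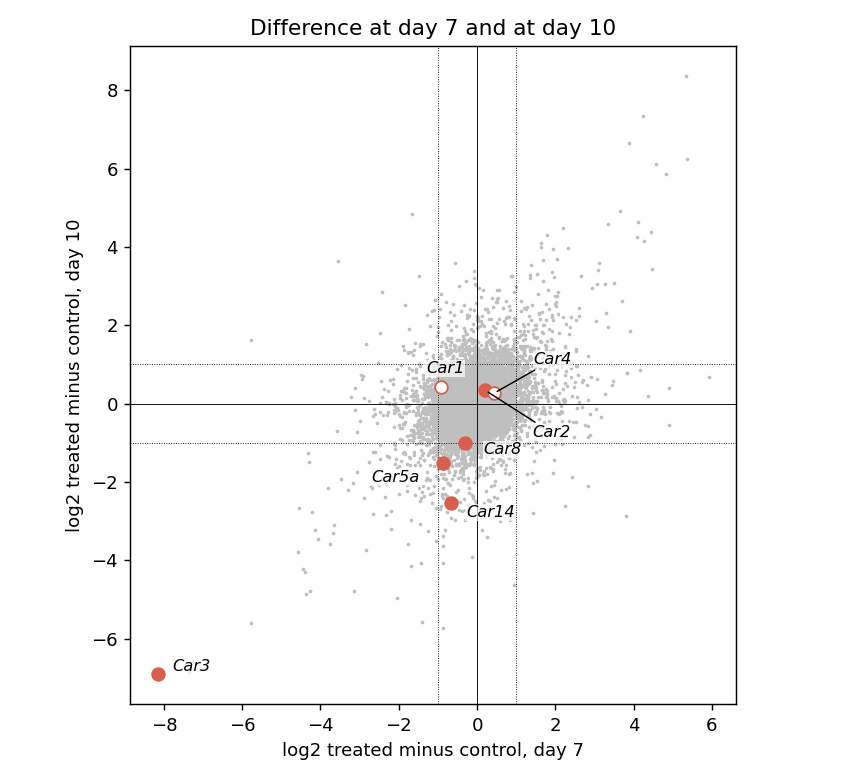
Treated minus control log2 difference at day 7 (horizontal) and day 10 (vertical) for the 11993 genes above the filter (grey) and the 7 carbonic anhydrases (orange; open symbols for Car1 and Car4, under the filter; dotted lines the 2-fold rule). Car3 lies at -8.15 and -6.91, close to Hsd3b5, which is bounded by the floor at -7.36 and -6.86, and Car14 lies lower at day 10 (-2.53) than at day 7 (-0.65).

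Of the members that were lower, 3 had a larger difference at day 10 than at day 7, each at its brightest probe set, while the bright probe sets of Car3 gave no common order of the days. Car14 went from -0.65 at day 7 to -2.53 at day 10 on the log2 scale, Car5a from -0.86 to -1.53 and Car8 from -0.30 to -0.999. In Car14 the difference at day 10 was at least 2-fold under that at day 7, as it was in 7.02% of all genes. Each of these steps compares 1 array with 1 array and has no replicate check.

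Car5a and Car14 are the members beside Car3 that passed the 2-fold rule, and their promoter sequences are given to show the letters in front of the genes that shared the lower signal at day 10. Of the 7 members, 3 matched the RefSeq promoter table of assembly GRCm38.p6, namely Car4, Car5a and Car14. Shown are the 250 bases before the annotated start, 5′ to 3′ along the gene's own strand, with matches to the motifs searched in capitals. The Car14 window is chr3:95904686-95904935 on the minus strand and that of Car5a is chr8:121944913-121945162 on the minus strand.
Car14: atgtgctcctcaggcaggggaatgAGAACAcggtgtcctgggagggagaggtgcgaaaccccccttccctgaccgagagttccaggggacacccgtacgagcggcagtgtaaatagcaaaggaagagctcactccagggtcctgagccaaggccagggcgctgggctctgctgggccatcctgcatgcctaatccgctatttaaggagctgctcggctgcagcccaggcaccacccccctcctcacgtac
Car5a: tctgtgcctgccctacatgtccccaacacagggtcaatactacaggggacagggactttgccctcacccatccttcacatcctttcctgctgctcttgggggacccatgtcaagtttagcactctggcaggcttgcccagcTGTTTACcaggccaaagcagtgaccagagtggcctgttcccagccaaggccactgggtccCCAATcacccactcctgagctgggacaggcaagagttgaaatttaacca

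In all, 10 motifs were searched on both strands of these windows. The window of Car5a held the FOXA core TGTTTAC from 109 to 103 bases before the start, a motif present in 3.17% of the 32851 windows of the same length, and the CCAAT box CCAAT from 49 to 45 bases before it (33.8% of windows). The window of Car14 held the glucocorticoid receptor half-site TGTTCT on the opposite strand, from 226 to 221 bases before the start (16.1%). The letters of the other 7 motifs were in neither window. They were the TATA box TATAAA (12.4% of windows), the STAT element TTCNNNGAA (7.02%), the AP-1 site TGANTCA (6.75%), the E-box CACGTG (6.02%), the C/EBP palindrome TTGCGCAA (0.164%), the nuclear receptor half-site AGGTCA (14%) and the GC box GGGCGG (32.7%). The Car4 window held none of the 10. No motif was shared by Car5a and Car14, and none of these motifs overlapped another within the windows shown.

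The genes whose pattern over the 4 arrays was most like that of Car3 were found by the Euclidean distance between log2 signals, each gene centred on its own mean, among 11992 other genes. The steroid dehydrogenase Hsd3b5 and the fatty acid elongase Elovl3 came first. Hsd3b5 read 10613 and 7544 units in control livers and lay under the floor in both treated livers, at least 164-fold lower at day 7 and at least 116-fold lower at day 10. Its distance therefore depends on the floor. It was 0.77 with the floor at 64.8, 1.36 with a floor of 21.1, 1.69 with a floor of 142.8 (the 40th percentile) and 2.33 with the signals as deposited, farther than Elovl3 in the last. These other floors were added after the values were seen. Elovl3, at 1.94 in each, read 16697 and 16908 units in control and 306.6 and 350.1 units in treated livers. The hepcidin gene Hamp came next at 3.07, before Hamp2, similar to it in sequence, at 3.14. The fatty acid hydroxylase Cyp4a12a was the fifth at 3.24, 21.9-fold lower at day 7 and 18.5-fold lower at day 10. With 4 arrays in 2 groups, likeness of pattern mostly means a difference of similar size.

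**Figure D3:**
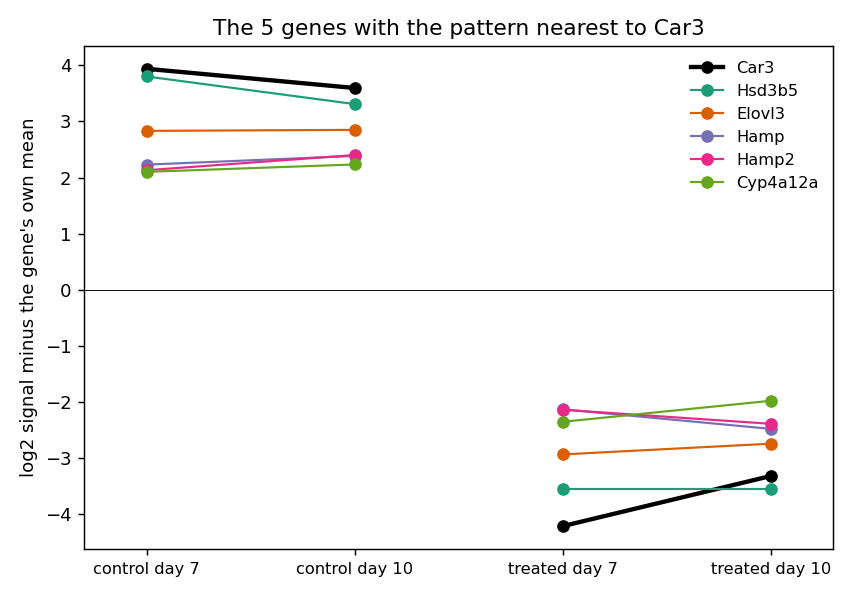
Log2 signal of Car3 and of the 5 genes nearest to it in pattern, each minus its own mean over the 4 arrays (lines join the 2 days of a group; signals under the floor of 64.8 set to it). Hsd3b5, drawn at the floor in both treated livers, lies at a distance of 0.77 that depends on the floor, and Elovl3, above it on all arrays, at 1.94.

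The other 9 carbonic anhydrase genes, which the choice of members left out, were tested in a limma fit over all 11993 genes. A gene passed at an adjusted p (Benjamini-Hochberg) under 0.05, which 79 genes did, 0.659% of those tested, split into 0.375% higher and 0.283% lower in treated livers. At an unadjusted p under 0.05 there were 1449 of the 11993, higher and lower together. Of the 9 genes 5 passed the filter on dim genes, and 0 passed limma, with 1 at an unadjusted p under 0.05. That gene was Car11, which like Car8 and Car10 lacks catalytic activity. It read 849.9 and 762.6 units in control and 550.3 and 499.4 units in treated livers, a log2 difference of -0.62 ± 0.22 (SE; limma adjusted p = 0.347). Car10 differed by -0.26 ± 0.22 (limma adjusted p = 0.677), and its groups did not overlap either. The membrane isoform Car9 read 578.6 and 483 units in control and 563.8 and 311.7 units in treated livers (-0.33 ± 0.34, limma adjusted p = 0.742), and leaving out the treated array of day 10 turned the sign of Car9 to 0.093. Of the 17 probe sets of the 9 genes, 0 were 2-fold apart in the same direction at both days. The median log2 difference of the 5 genes was -0.26 (-0.37 to -0.16 with an array left out) against -0.02 over all genes.

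Genes that work beside the carbonic anhydrases were taken as lists. Of 31 carriers of bicarbonate, protons and lactate, 27 were on the array and 15 passed the filter. In limma 0 passed, and 1 was higher and 4 were lower at an unadjusted p under 0.05. The sodium bicarbonate cotransporter Slc4a4 read 2105 and 1807 units in control and 4585 and 4970 units in treated livers, without overlap. Its log2 difference was 1.29 ± 0.21 (SE; limma adjusted p = 0.0642). It passed when the treated array of day 7 (limma adjusted p = 0.0164) or of day 10 (0.0332) was left out, in fits whose spread came from the control arrays alone, and with the mean of its probe sets the difference was 0.75 (adjusted p = 0.234). The adjusted p of Slc4a4 lay between 0.0552 and 0.423 in its other alternatives. The anion exchanger Slc26a1 read 2204 and 2515 units in control and 1376 and 1142 units in treated livers, a difference of -0.91 ± 0.22 (limma adjusted p = 0.181). The list's median was 0.06, ranging from -0.11 to 0.16 with an array left out, and -0.30 with the stricter filter.

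Of the 8 enzymes on the array that take up bicarbonate, all passed the filter and 0 passed limma. At an unadjusted p under 0.05, 1 was higher and 1 lower, beside 1449 of all 11993 genes in either direction. Pyruvate carboxylase, listed as Pcx, read 4878 and 4865 units in control and 8402 and 9021 units in treated livers, a difference of 0.84 ± 0.20 (SE; limma adjusted p = 0.174). The 1 lower gene counted above was Mccc1, at 3680.6 and 4143.5 units in control and 2509.3 and 2462.8 units in treated livers. Its difference was -0.65 ± 0.20 (limma adjusted p = 0.284). Acacb, an acetyl-CoA carboxylase, was not counted there, at a difference of -1.64 ± 0.74 (limma adjusted p = 0.451). Acacb read 759.6 and 844.1 units in control and 610.6 and 107.5 units in treated livers, so that its low value was at day 10. Lower signals at both days were seen in 6 of the 8, against 31.1% of all genes. The median was -0.21, -0.051 with the mean of probe sets and -0.40 to -0.16 with an array left out. Car5a was thus lower at both days while Pcx, one of the enzymes it serves, was higher at both.

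Of 9 genes of the urea cycle, its carriers and ammonia handling above the filter, called urea cycle genes here, 0 passed limma. At an unadjusted p under 0.05, 1 was higher and 1 lower, beside 1449 of all 11993 genes in either direction. The higher one was glutamine synthetase, Glul, which is not an enzyme of the cycle and is counted again among the pericentral genes below. Ornithine transcarbamylase, Otc, read 17404 and 21316 units in control and 9992 and 5589 units in treated livers, with log2 differences of -0.80 at day 7 and -1.93 at day 10 (limma adjusted p = 0.172). Those of Car5a, which lies in the same compartment, were -0.86 and -1.53. For the urea cycle genes the day 7 median was 0.28, that of day 10 was -0.22 and that over both was -0.04, ranging from -0.14 to 0.34 with an array left out. When either treated array was left out Otc passed, at differences of -1.78 and -0.95 (limma adjusted p = 0.00127 leaving out day 7, 0.0429 leaving out day 10), and its adjusted p lay between 0.115 and 0.614 in its other alternatives.

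Car3 and Car2 are known to be more abundant near the central vein of the rodent liver lobule. Of 12 pericentral genes above the filter 0 passed limma. Beside 1449 of all 11993 genes in either direction, 2 of these were higher and 0 lower at an unadjusted p under 0.05. Their median was 0.24, but 0.022 with the mean of probe sets, 0.017 without the day 10 control array and 0.43 without the day 7 control array. Glutamine synthetase, Glul, the classical pericentral enzyme, read 7508 and 5441 units in control and 16623 and 12521 units in treated livers (limma adjusted p = 0.158). Cyp1a2 differed by -1.15 ± 0.48 (SE; limma adjusted p = 0.418). Of 9 periportal genes above the filter 0 passed limma, with 1 higher and 1 lower at an unadjusted p under 0.05, beside the same 1449. The day 7 median of the periportal genes, 0.56, was opposite in sign to that of day 10, -0.72. The median over both days, 0.01, ranged from -0.48 to 0.47 with an array left out. Among them Cyp2f2 differed by -1.39 ± 0.49 (limma adjusted p = 0.349) and Ctsc by 1.44 ± 0.27 (limma adjusted p = 0.11). Leaving out the treated array of day 7 gave medians of 0.15 for the pericentral and -0.48 for the periportal genes. Without the treated array of day 10 they were 0.26 and 0.47. In these fits the spread again came from the control arrays alone and more genes passed over all genes. Nothing is therefore read from how many zone genes passed in them. The difference of Car3 was not matched in size by any gene of either zone list.

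**Figure D4:**
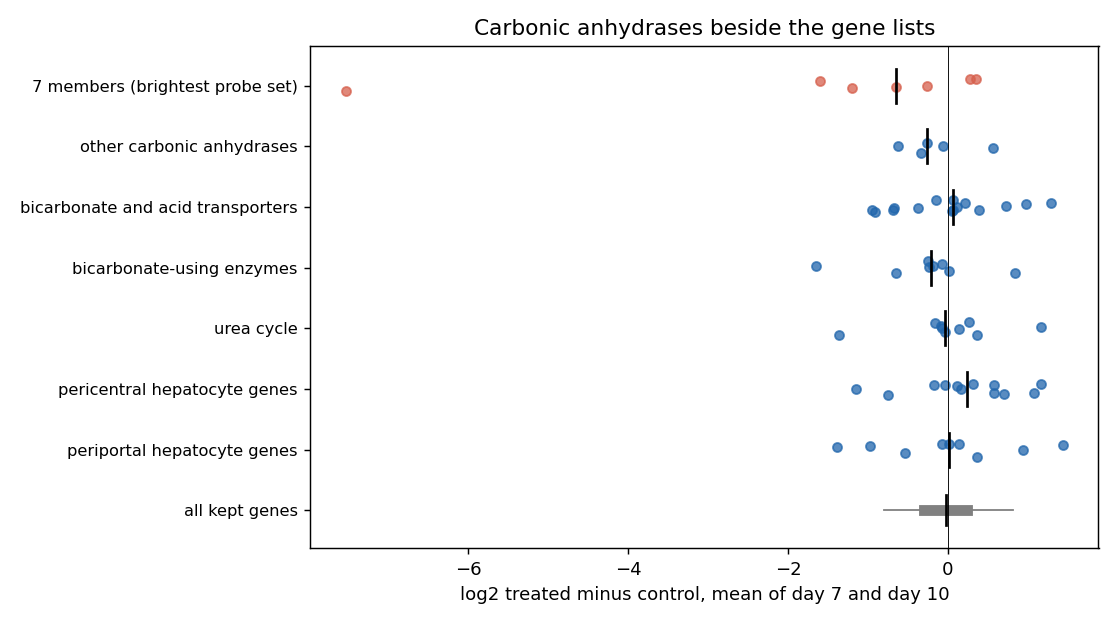
Mean treated minus control log2 difference over both days for the 7 members (orange, brightest probe set), for the genes of each list above the filter (blue) and for all 11993 genes (grey; thick bar the middle 50%, thin line the 5th to 95th percentile); black bars are medians. Car3 lies at -7.53, and the genes of the other lists lie between -1.64 and 1.44.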

How the data were processed

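The authors deposited 1 intensity per probe set and array, on a linear scale, made with MAS5 per the submitters' processing notes (version not given). The mean of each of the 4 arrays, trimmed by 2% at both ends, was 500.0. Detection calls were not used here. The members and gene lists were chosen with earlier results of these data known.

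Of 45101 probe sets 64 were array controls, and 34945 of the others had a single symbol (932 several, 9160 none), giving 18193 genes. Signals were floored at 64.8 and put on the log2 scale, and a gene's brightest probe set stood for it. The filter kept 11993 genes, those whose mean log2 exceeded 7.67 (the probe sets' median). The comparison of groups used limma 3.58.1 under R 4.3.3, with an intensity trend, 2 arrays per group and no day term. It had 2 residual degrees of freedom and was two-sided with Benjamini-Hochberg adjustment. The code was run on simulated arrays drawn independently from the fitted spread without a day effect, which cannot check the calls made here. Since the arrays are of pools, p-values measure only the spread between arrays. Single days have 1 array per side and no test. Genes named from the lists were those that passed limma, and otherwise up to 3 highest and 3 lowest by the smaller of their daily differences with the same sign. The 5 genes nearest to Car3 were named by distance. Promoters are those of RefSeq. Alternatives covered normalization, floor, filter, probe set, trend, day as a block, each array left out, and the thresholds. Figures used Python 3.11.15 and matplotlib 3.10.9.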

Additional observations from a re-analysis of the deposited data

Results flagged for a closer look

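Car1 differed in sign between the days: its log2 difference, treated minus control, was -0.93 at day 7 and 0.42 at day 10. Each day has 1 array per side, so this difference between the days was not tested. Car1 lay under the filter on dim genes, and its control arrays alone differed 2.51-fold.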

How the results depend on the processing

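The counts of members at least 2-fold lower (1 at day 7, 3 at day 10) or higher (0) were the same under quantile normalization, both other floors and the mean of probe sets. With arrays scaled to equal medians Car8 also passed at day 10, giving 4. With a 1.5-fold rule 4 members were lower at day 7 (Car1, Car3, Car5a and Car14) and 4 at day 10 (Car3, Car5a, Car8 and Car14). With a 3-fold rule 1 was lower at day 7 (Car3) and 2 at day 10 (Car3 and Car14). Shares of all genes under these other rules were not counted, so nothing is read from these counts. With the mean of its probe sets Car3 differed by -5.10 at day 7 and -4.59 at day 10 on the log2 scale, since 2 of them are near the floor, and Car8 by -0.33 at day 10. Leaving out an array gave mean differences of -7.98 to -7.09 for Car3, -2.58 to -0.60 for Car14, -1.70 to -0.69 for Car5a, -1.01 to -0.28 for Car8 and -0.92 to 0.41 for Car1. Over all genes limma called 79, but 0 without a filter (more dim genes tested), 42 with the mean of probe sets, 42 without the trend, 47 with day as a block (replicate block), 162 at an adjusted p under 0.1 and 24 to 466 with an array left out; the cause was not tested. At an adjusted p under 0.1, 1 carrier gene (Slc4a4) passed. With an array left out the counts that passed were 0 to 2 carriers, 0 to 1 bicarbonate-using enzymes, 0 to 3 urea cycle, 0 to 4 pericentral and 0 to 4 periportal genes, and 0 other carbonic anhydrases. Leaving out the treated array of day 10 reversed the signs of Car9 (range over arrays left out -0.76 to 0.093) and Cyp2c29 (-1.66 to 0.16). The day block changed no list's count. The deviations of the day 7 arrays from their group means correlated across genes at -0.07. Signals near the floor limit Car1, Car4 and the dim Car3 and Car8 probe sets.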

Other observations

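The chloride bicarbonate exchanger Slc4a1, which gives bicarbonate its way across the red cell membrane, lay under the filter on dim genes and entered no test. It was chosen here after its values were seen. Its brightest probe set read 60.1 and 51.9 units in control livers, under the floor on both arrays, and 521.3 and 574.8 units in treated livers, higher by at least 3.01 at day 7 and at least 3.15 at day 10 on the log2 scale. No other red cell marker on the array showed a rise of this size. Alas2, the first enzyme of red cell haem synthesis, was lower in treated livers. It read 3971 and 3735 units in control and 1043 and 1977 units in treated livers (limma adjusted p = 0.166 over 11993 genes). Hbb-b2 was higher by less, at 807.4 and 678.9 units in control and 927.6 and 917.4 units in treated livers.

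Of the 9 macrophage markers, 9 were higher in treated livers at both days, as were 26.7% of all 11993 genes, and 1 passed limma, Vsig4, a complement receptor of resident liver macrophages. It read 1333 and 1050 units in control and 5162 and 4652 units in treated livers at day 7 and day 10 (log2 difference 2.05 ± 0.22, SE; limma adjusted p = 0.0193). Pancreatic acinar markers were read for tissue carried over at dissection. They summed to 5759 and 3163 units in control and 3394 and 3796 units in treated livers, with Cpa1 and Cpb1 at or under the floor on all arrays. Of the 7 on the array, 3 passed the filter on dim genes, Cela1, Cela3b and Prss2, and these made up most of each sum. Cela1 read 2993 and 1171 units in control and 1023 and 1463 units in treated livers. Whether any pancreas was carried over was not tested.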
